A study of Homo sapiens with 4 samples.

Results

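The H/ACA box small nucleolar RNAs (snoRNAs) of the NOMO-1 leukaemia line were described in RNA pulled down with 3xFlag-tagged ALKBH5 and in input RNA. They are the 133 rows of the 26830 in the deposited expression table whose symbol is SNORA followed by a number. Of these, 31 were listed at 0 in every library, 102 were above 0 in at least 1 library and 74 were above 0 in all 4. The 75 with a mean of at least 1 TPM (transcript abundance corrected for length, summing to 1000000 in each library) over the 4 libraries were tested, among 6487 genes tested in all, and 27 were above 0 but under that mean.

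H/ACA snoRNAs fold into a pair of hairpins joined by a hinge that carries box H (the motif ANANNA, where N is any base) and followed by a tail that carries the box ACA. Each associates with dyskerin (DKC1), NHP2, NOP10 and GAR1, and the RNA guides dyskerin, a pseudouridine synthase, to the uridines of ribosomal RNA that it converts to pseudouridine. Most human H/ACA snoRNAs are cut out of introns of a host gene, and many hosts encode ribosomal proteins or translation factors, or are noncoding genes with SNHG symbols. ALKBH5 is a demethylase that removes the methyl group of N6-methyladenosine from RNA.

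NOMO-1 is an established human acute myeloid leukaemia line with monocytic features. All 4 libraries came from cells overexpressing ALKBH5: a lentivirus brought in its coding sequence with a 3xFlag tag, and infected cells were selected with puromycin, sorted for GFP and irradiated with ultraviolet light to crosslink RNA to protein. The 2 Flag-IP libraries, with replicate numbers 1 and 3, hold RNA recovered with an anti-Flag antibody, and the 2 input libraries, numbered 1 and 3 as well, hold RNA of such cells with no antibody used. Libraries were made with a stranded mRNA kit after fragmentation. A pull-down from cells without the tag was not analysed here, so RNA that the antibody and beads retain without ALKBH5 was not measured. The labels name no separate cultures behind replicates 1 and 3, so each p-value reflects how these libraries varied, in part perhaps for technical reasons. The RNA is from bulk cells, in which fewer cells with a snoRNA and less of it per cell cannot be told apart.

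ALKBH5 itself had 10.09 and 8.91 TPM in Flag-IP 1 and 3, against 4.62 and 4.91 TPM in input 1 and 3. Of 15 myeloid markers 10 reached a mean of 1 TPM and CD14 was listed at 0, and of 9 markers of other cells 2 (NKG7 and PECAM1) reached it while CD3E, EPCAM and ALB were at 0. TPM keeps no sequencing depth, so the depth of each library is unknown. The low values moved in steps: of 155 values of H/ACA snoRNAs above 0 and below 4 TPM, 146 (94.2%) lay within 0.1 of a whole number of steps, with the step size and a length offset fitted to those same values. At the typical length of 134 bases 1 step was 0.395 and 0.399 TPM in Flag-IP 1 and 3 and 0.404 and 0.492 TPM in input 1 and 3. Of the 75 tested snoRNAs, 38 stood under 10 steps in at least 1 library, so their values are coarse, and 37 stood at 10 or more steps in every library.

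The box motifs were checked on the transcripts of GENCODE 29 (GRCh38), which holds a sequence for 109 of the 133 symbols; the other 24 are known here from RefSeq alone. Of the 109, 83 (76.1%) ended with ACA exactly 3 bases before the last base, 100 (91.7%) held ACA within the last 10 bases and 105 (96.3%) held ANANNA starting in the central part (after the first and before the last of 3 equal parts), read on the transcript strand. Of 262 box C/D snoRNA sequences (SNORD symbols), which guide ribose methylation and lack these boxes, 3 (1.15%), 11 (4.20%) and 152 (58.0%) matched the same patterns. The ACA tail was common in H/ACA and rare in box C/D sequences, while ANANNA, which is short, was found in most box C/D sequences too. Sequences are shown for the 3 snoRNAs with the largest decreases in Flag-IP and the 3 with the largest positive differences, ranked after scaling by the typical gene (the median-ratio scale described further on), and for SNORA73A, from GENCODE 29, 5′ to 3′ in DNA letters. Capitals mark each ANANNA match that starts in that central part, overlapping matches run together, and the last ACA in the final 10 bases; a match is a description and not a mapped box. The first 3 are SNORA40 (chr11:93735111-93735236, minus strand, within TAF1D), SNORA79 (chr14:81202695-81202834, minus strand, within GTF2A1) and SNORA22 (chr7:65755526-65755659, plus strand, within the pseudogene CCT6P1), all lower in Flag-IP.
SNORA40: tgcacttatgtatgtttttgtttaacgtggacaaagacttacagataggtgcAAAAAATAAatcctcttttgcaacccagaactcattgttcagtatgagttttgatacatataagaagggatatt
SNORA79: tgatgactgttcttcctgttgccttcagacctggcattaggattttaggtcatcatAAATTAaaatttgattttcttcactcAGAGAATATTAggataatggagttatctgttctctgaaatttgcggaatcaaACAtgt
SNORA22: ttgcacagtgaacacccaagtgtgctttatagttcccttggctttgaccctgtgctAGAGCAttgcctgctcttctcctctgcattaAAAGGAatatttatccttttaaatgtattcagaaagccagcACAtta
SNORA62 (chr3:39411054-39411206, plus strand, within RPSA), SNORA31 (chr13:45337480-45337609, minus strand, within TPT1) and SNORA25 (chr11:93730513-93730646, minus strand, within TAF1D) are the 3 at the other end.
SNORA62: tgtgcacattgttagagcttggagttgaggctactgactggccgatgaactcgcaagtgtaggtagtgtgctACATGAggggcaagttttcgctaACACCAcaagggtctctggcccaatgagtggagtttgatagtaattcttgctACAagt
SNORA31: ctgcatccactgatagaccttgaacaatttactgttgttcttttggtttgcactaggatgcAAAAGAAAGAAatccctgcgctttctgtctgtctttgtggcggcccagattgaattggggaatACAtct
SNORA25: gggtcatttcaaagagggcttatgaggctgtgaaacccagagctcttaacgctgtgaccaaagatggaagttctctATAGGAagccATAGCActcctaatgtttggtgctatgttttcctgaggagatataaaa
SNORA73A (chr1:28507366-28507571, plus strand, within RCC1 and SNHG3) is U17, which takes part in cleavage of the ribosomal RNA precursor and is the longest of the 7 shown.
SNORA73A: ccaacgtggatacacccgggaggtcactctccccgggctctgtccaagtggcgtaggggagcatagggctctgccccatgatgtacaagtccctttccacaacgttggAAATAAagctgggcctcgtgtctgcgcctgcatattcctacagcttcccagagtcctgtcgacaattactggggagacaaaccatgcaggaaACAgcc
The annotated SNORA40 and SNORA25, both of TAF1D, had no ACA in their last 10 bases, while the other 5 had ACA at 3 bases from the end. A transcript end in the annotation need not be the end of the RNA in the cell.

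A single row, SNORA109, held most of the summed TPM of the H/ACA rows. SNORA109 is placed by RefSeq at chrX:55183480-55183607 (GRCh38.p14), with no strand known here, so no host gene was looked for. It had 3061 and 2225 TPM in Flag-IP 1 and 3, against 2718 and 3374 TPM in input 1 and 3. The groups overlapped, and its mean was 16.65 times that of the next member, SNORA17B. It made up 71.1% and 57.6% of the summed TPM of all H/ACA snoRNAs in Flag-IP 1 and 3, and 64.7% and 72.9% in input 1 and 3. The other tested snoRNAs ranged down to a mean of 1.06 TPM, with a median over the 75 of 8.57 TPM.

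Summed over all 133 rows, H/ACA snoRNAs held 4308 and 3866 TPM in Flag-IP 1 and 3, against 4202 and 4631 TPM in input 1 and 3. The ratio of the means was 0.925 (exact permutation test over the 4 libraries, two-sided p = 0.667, where 2 against 2 cannot go below 0.333). Without SNORA109 the sums were 1247 and 1641 TPM in Flag-IP 1 and 3, against 1484 and 1257 TPM in input 1 and 3, with a ratio of 1.05. Both sums overlapped between the groups. As a share of the TPM outside ribosomal RNA, 7SL and 7SK, H/ACA snoRNAs made up 3.34% and 3.30% in Flag-IP 1 and 3, against 6.20% and 6.44% in input 1 and 3. That share was 0.525 times as large in Flag-IP, without overlap (exact permutation test, p = 0.333, the smallest the design allows). The H/ACA sum itself overlapped between the groups. The smaller share thus mostly reflects a larger total TPM outside ribosomal RNA, 7SL and 7SK in Flag-IP. Without SNORA109 the shares were 0.968% and 1.40% in Flag-IP 1 and 3, against 2.19% and 1.75% in input 1 and 3, again without overlap. The number of members above 0 was 87 and 93 in Flag-IP 1 and 3, against 88 and 87 in input 1 and 3.

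**Figure D1:**
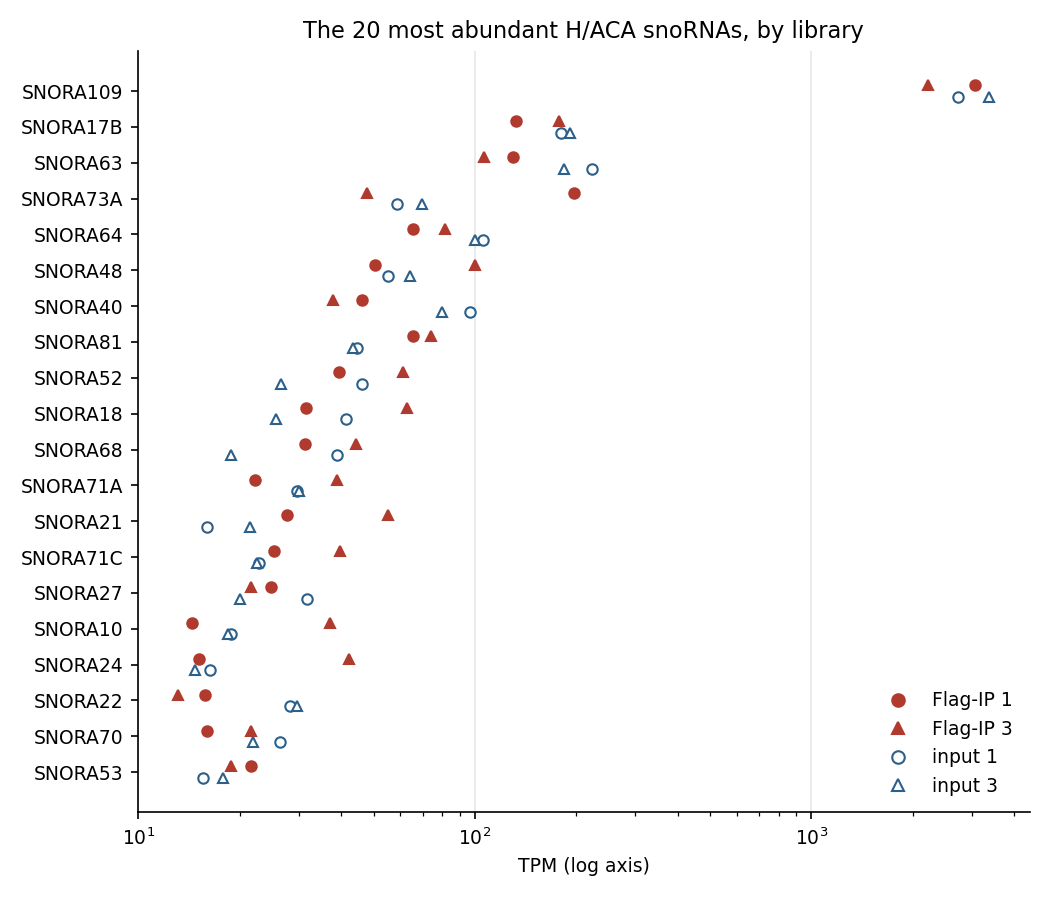
TPM (log axis) of the H/ACA snoRNAs with the highest means, 1 row each, with filled marks for the Flag-IP libraries and open marks for the input libraries. SNORA109 lies far to the right of every other row, and Flag-IP 1 stands apart for SNORA73A at 197.34 TPM.

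Flag-IP was set against input on 2 scales, since most genes stood higher in Flag-IP as deposited. The deposited scale uses log2(TPM + 1) as given; the median-ratio scale first divides each library by a factor that brings the typical gene level between libraries (1.727 and 1.399 for Flag-IP 1 and 3, 0.6005 and 0.6977 for input 1 and 3). Every log2 difference is Flag-IP minus input on the log2(TPM + 1) scale, which understates the change of low values, and calls are those of limma with an adjusted p below 0.05 over all 6487 genes.

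On the deposited scale 25 of the 75 tested H/ACA snoRNAs were higher in Flag-IP (33.3%), against 86.6% of all genes tested, and 11 were lower (14.7%), against 0.74% of all genes tested. The other 39 did not pass. Their median log2 difference was 0.09, against 0.84 over all genes, and single snoRNAs ranged between -1.70 (SNORA79) and 2.21 (SNORA62). Both Flag-IP libraries stood above both input libraries for 17 snoRNAs and below for 14, against 93.1% and 1.09% of all genes. Of the 25 higher calls 12 were of snoRNAs whose groups overlapped, and of the 11 lower calls 2. The test on this scale gave the genes of a level 1 shared spread (infinite prior degrees of freedom), so a call there does not require the libraries of that snoRNA to separate.

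On the median-ratio scale none of the 75 was called higher and 25 were lower (33.3%), where 22.3% of all genes tested were higher and 18.6% lower. Before adjustment 1 snoRNA (SNORA5C) was higher at p below 0.05 and 38 were lower (limma). The share of all genes at that unadjusted threshold was not counted, so these 2 counts cannot be set against the shares above. The median log2 difference was -0.94, against -0.01 over all genes, with a range between -2.30 (SNORA40) and 1.15 (SNORA62). Without SNORA109 the median of the other 74 was -0.92. Both Flag-IP libraries stood below both input libraries for 41 snoRNAs and above for 3, against 37.1% and 37% of all genes. Among the 37 snoRNAs at 10 or more steps in every library 16 were lower and the median log2 difference was -0.997; among the 38 with coarser values 9 were lower and the median was -0.79. Across the 75, the median-ratio difference had a Spearman correlation of -0.21 with the mean TPM and of 0.22 with the length, given as a description of snoRNAs that share these 4 libraries.

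Put together by call, 9 snoRNAs were lower on both scales, 14 were lower on the median-ratio scale alone, 23 were higher on the deposited scale alone and 25 passed on neither. SNORA38B and SNORA101B were lower on the deposited scale alone. SNORA81 and SNORA47 were higher as deposited and lower on the median-ratio scale, so their direction depends on the scale. SNORA47 (0.46 as deposited, -0.51 on the median-ratio scale) kept neither call with each library left out: as deposited it came to between 0.27 and 0.64, in no case past the threshold, and on the median-ratio scale to between -0.65 and -0.38, past it without input 1.

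**Figure D2:**
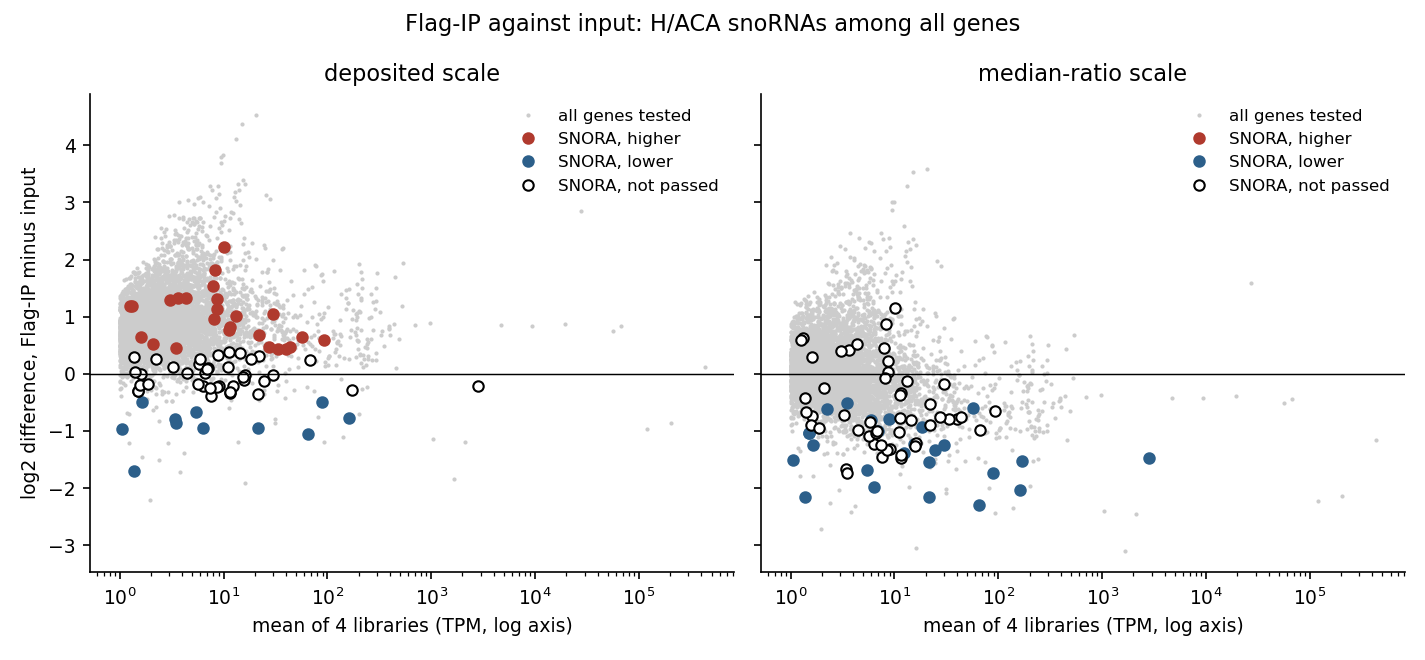
Log2 difference (Flag-IP minus input) against the mean of the 4 libraries (TPM, log axis) for all 6487 genes tested in grey and the 75 H/ACA snoRNAs in colour, red where called higher, blue where called lower and open where not passed, on the deposited scale at left and the median-ratio scale at right. Most grey points lie above 0 on the deposited scale, where the snoRNAs spread on both sides of 0, and most snoRNAs lie below 0 on the median-ratio scale.

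The snoRNAs lower on both scales included members at high and at low levels. SNORA40, from TAF1D, the gene of a subunit of an RNA polymerase I factor, had 46.06 and 37.81 TPM in Flag-IP 1 and 3, against 96.82 and 79.84 TPM in input 1 and 3. Both Flag-IP values lay under both input values. Its log2 difference was -1.06 (SE 0.21, limma adjusted p = 1.28e-06) as deposited and -2.30 (SE 0.17, adjusted p = 0.00071) on the median-ratio scale. SNORA63, from EIF4A2, which encodes an RNA helicase of translation initiation, had 129.63 and 106.42 TPM in Flag-IP 1 and 3, against 223.12 and 183.74 TPM in input 1 and 3. It also separated the groups, with log2 differences of -0.78 (SE 0.20, limma adjusted p = 0.000191) as deposited and -2.04 (SE 0.18, adjusted p = 0.00103) on the median-ratio scale. SNORA22 had 15.8 and 13.16 TPM in Flag-IP 1 and 3, against 28.27 and 29.51 TPM in input 1 and 3. Its input values were close to each other and well above both Flag-IP values, and the log2 differences were -0.95 (SE 0.21, limma adjusted p = 1.89e-05) and -2.15 (SE 0.11, adjusted p = 0.000386).

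SNORA79 was listed at 0 in both Flag-IP libraries, against 4.53 and 0.92 TPM in input 1 and 3, which are 12 and 2 steps. It was called lower on both scales, but the size of its log2 difference depends on the pseudocount, and on the median-ratio scale the call was lost without Flag-IP 1 (adjusted p = 0.104) or Flag-IP 3 (adjusted p = 0.117). SNORA11B was also low, at 0 and 0.87 TPM in Flag-IP 1 and 3, against 1.76 and 1.61 TPM in input 1 and 3. Its groups did not overlap and its call was kept on the deposited scale with each library left out, though no library held more than 4 steps. SNORA11, of the same family, ran the other way and was not tested. It had 0.82 and 0.83 TPM in Flag-IP 1 and 3, against 0 TPM in input 1 and 3. Summed over the SNORA11 family, the values overlapped: 0.82 and 1.7 TPM in Flag-IP 1 and 3, against 1.76 and 1.61 TPM in input 1 and 3. Whether reads were split between these symbols was not tested. SNORA64, from the ribosomal protein gene RPS2, had 65.58 and 81.35 TPM in Flag-IP 1 and 3, against 105.81 and 99.83 TPM in input 1 and 3. Its groups separated, with log2 differences of -0.49 as deposited (limma adjusted p = 0.0223) and of -1.73 after median-ratio scaling (limma adjusted p = 0.00262); the deposited call was lost without Flag-IP 1 (-0.33), input 1 (-0.45) or input 3 (-0.53).

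SNORA37, from MBD2, a methyl-CpG binding protein gene, had 2.52 and 5.93 TPM in Flag-IP 1 and 3, against 9.87 and 7.31 TPM in input 1 and 3. The groups separated by a small margin, and the deposited difference of -0.94 was -0.46 without Flag-IP 1, where it no longer passed. SNORA15, from the chaperonin gene CCT6A, had 2.8 and 5.25 TPM in Flag-IP 1 and 3, against 8.17 and 5.47 TPM in input 1 and 3. Flag-IP 3 and input 3 almost met, and the deposited difference of -0.66 no longer passed without Flag-IP 1 (-0.30) or input 1 (-0.41), while on the median-ratio scale it was -1.69 (limma adjusted p = 0.0112). SNORA65, from RPL12, is the ninth of these, at 1.16 and 1.17 TPM in Flag-IP 1 and 3, against 2.76 and 1.44 TPM in input 1 and 3. Its deposited difference of -0.48 no longer passed without Flag-IP 1 (-0.48), Flag-IP 3 (-0.49) or input 1 (-0.17), and its median-ratio difference of -1.24 no longer passed without Flag-IP 1 (-1.09) or Flag-IP 3 (-1.25). For SNORA38B the groups overlapped, with 0.81 and 3.68 TPM in Flag-IP 1 and 3, against 7.03 and 2.52 TPM in input 1 and 3. SNORA101B overlapped as well, with 1.21 and 2.86 TPM in Flag-IP 1 and 3, against 7.44 and 2.01 TPM in input 1 and 3. Their deposited calls were lost without Flag-IP 1 (-0.18 for SNORA38B and -0.38 for SNORA101B) or input 1 (-0.27 and -0.04 in the same order).

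Several abundant snoRNAs were lower on the median-ratio scale and did not pass as deposited. SNORA17B, from the noncoding host SNHG7 and present at more than 1 locus of that name, had 132.73 and 177.86 TPM in Flag-IP 1 and 3, against 180.52 and 192.29 TPM in input 1 and 3. Flag-IP 3 lay just under input 1, and the log2 differences were -0.28 (limma adjusted p = 0.18) as deposited and -1.53 (SE 0.23, adjusted p = 0.00487) on the median-ratio scale. SNORA109 followed the same pattern, with -0.21 (limma adjusted p = 0.203) as deposited and -1.48 (SE 0.13, adjusted p = 0.00108) on the median-ratio scale. With quantile scaling SNORA109 was at 0.23 and did not pass (limma adjusted p = 0.251), so its direction depends on the scaling. SNORA70, from the ribosomal protein gene RPL10, had 16.01 and 21.68 TPM in Flag-IP 1 and 3, against 26.34 and 21.87 TPM in input 1 and 3, with a median-ratio difference of -1.55 (limma adjusted p = 0.00635). SNORA48 had 50.37 and 99.72 TPM in Flag-IP 1 and 3, against 55.08 and 64.16 TPM in input 1 and 3, and passed on neither scale. It is one of the 10 most abundant, and Flag-IP 3 was its highest library while Flag-IP 1 was its lowest.

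SNORA62 had the largest positive difference on both scales. It and SNORA6 lie in RPSA, the gene of a small-subunit ribosomal protein. SNORA62 had 10.56 and 24.54 TPM in Flag-IP 1 and 3, against 3.6 and 1.99 TPM in input 1 and 3. Both Flag-IP values lay above both input values on both scales. The log2 difference was 2.21 (SE 0.21, limma adjusted p = 3.51e-23) as deposited and 1.15 (SE 0.48, adjusted p = 0.103) on the median-ratio scale. SNORA6 (chr3:39408389-39408539, plus strand) had 11.08 and 13.56 TPM in Flag-IP 1 and 3, against 3.78 and 3.34 TPM in input 1 and 3. Its libraries were close within each group, and the log2 difference was 1.54 (SE 0.21, limma adjusted p = 5.76e-12) as deposited and 0.45 (SE 0.20, adjusted p = 0.123) on the median-ratio scale. SNORA5C, from TBRG4, had 6.11 and 3.47 TPM in Flag-IP 1 and 3, against 1.17 and 1.43 TPM in input 1 and 3. It was the other snoRNA above input on both scales without overlap, with log2 differences of 1.30 (limma adjusted p = 3.94e-09) and 0.41 (adjusted p = 0.0715).

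SNORA33, from the ribosomal protein gene RPS12, had 10.39 and 14.12 TPM in Flag-IP 1 and 3, against 4.5 and 5.47 TPM in input 1 and 3. It was higher as deposited (log2 difference 1.14, limma adjusted p = 3.86e-07) and near 0 on the median-ratio scale (0.03, adjusted p = 0.934). SNORA30, from the chromatin remodeller gene SRCAP, had 2.1 and 2.12 TPM in Flag-IP 1 and 3, against 0.86 and 0 TPM in input 1 and 3, which are at most 5 steps in any library. SNORA25 had 1.21 and 3.27 TPM in Flag-IP 1 and 3, against 0.83 and 0 TPM in input 1 and 3, with at most 8 steps. Both were called higher as deposited and neither passed on the median-ratio scale. Both reached the mean of 1 TPM only through Flag-IP, where they are high. With no filter the deposited call of SNORA25 was lost (limma adjusted p = 0.0891) and that of SNORA30 was kept (limma adjusted p = 0.0402). The calls of SNORA25, SNORA30, SNORA33, SNORA5C, SNORA6, SNORA62 and SNORA81 are the 7 of the 25 higher calls that were kept with each library left out in turn.

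The other higher calls were each lost with at least 1 library left out. SNORA73A had 197.34 and 47.63 TPM in Flag-IP 1 and 3, against 58.66 and 69.62 TPM in input 1 and 3. Flag-IP 1 was 2.84 times the highest other library, while Flag-IP 3 was the lowest of the 4. The deposited difference of 0.60 (SE 0.21, limma adjusted p = 0.00529) was -0.42 without Flag-IP 1 and 0.48, not passed, without input 1, and on the median-ratio scale it was -0.65 (adjusted p = 0.339). SNORA73B, the other U17 symbol, was listed at 0 in all libraries. SNORA31, from TPT1, had 3.78 and 23.95 TPM in Flag-IP 1 and 3, against 4.93 and 0.62 TPM in input 1 and 3. Flag-IP 1 lay between the input values, and the deposited difference of 1.82 was 0.63 without Flag-IP 3, which did not pass.

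SNORA71B, from SNHG17, had 1.16 and 13.64 TPM in Flag-IP 1 and 3, against 1.58 and 0.96 TPM in input 1 and 3. Flag-IP 3 was 8.63 times the highest other library, and the deposited difference of 1.32 was -0.06 without it. SNORA61, from SNHG12, had 8.7 and 15.9 TPM in Flag-IP 1 and 3, against 7.63 and 2.06 TPM in input 1 and 3. Its groups separated as deposited, but the difference of 1.32 no longer passed without Flag-IP 3 (0.92) or input 3 (0.57). SNORA16A, of the same host, had 4.35 and 6.38 TPM in Flag-IP 1 and 3, against 3.23 and 0.49 TPM in input 1 and 3, and its deposited difference of 1.32 was 0.57 without input 3 and did not pass. SNORA52, from RPLP2, and SNORA18, from TAF1D, are abundant snoRNAs with small deposited differences and overlapping groups. SNORA52 had 39.5 and 61.01 TPM in Flag-IP 1 and 3, against 46.04 and 26.56 TPM in input 1 and 3, and its difference of 0.48 no longer passed without Flag-IP 3 (0.17) or input 3 (0.09). SNORA18 had 31.55 and 62.89 TPM in Flag-IP 1 and 3, against 41.36 and 25.68 TPM in input 1 and 3, and its difference of 0.44 was -0.05 without Flag-IP 3 and 0.11 without input 3.

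The libraries of a group differed in snoRNA level. Of the 75 tested snoRNAs 60 were higher in Flag-IP 3 than in Flag-IP 1, with a median TPM ratio of 1.56 over the 72 above 0 in both, where the median ratio over all genes was 0.823. In input, 54 of the 75 were higher in library 1 than in library 3, with a median ratio of 1.21, where that of all genes was 0.859. SNORA109 and SNORA73A were among those that ran the other way in Flag-IP. Leaving out 1 library at a time, 7 of the 25 higher and 5 of the 11 lower calls on the deposited scale, and 15 of the 25 lower calls on the median-ratio scale, were kept in all 4 repeats. The 5 lower calls on the deposited scale were SNORA11B, SNORA22, SNORA40, SNORA63 and SNORA79. SNORA11B and SNORA79 reached the mean of 1 TPM only through input, where they are high. With no filter 3 of the 11 lower calls were kept, those of SNORA22, SNORA40 and SNORA63, and 7 of the 25 higher calls. The count of snoRNAs higher as deposited was 11 without Flag-IP 3 and 15 without input 3; the count of those lower was 5 without Flag-IP 1, 6 without input 1 and 22 without Flag-IP 3. On the median-ratio scale 38 were lower without Flag-IP 3, and 4 were higher without Flag-IP 1 and 3 without input 1. The median difference of the snoRNAs as deposited (0.09) was 0.49 without Flag-IP 1, -0.20 without Flag-IP 3, 0.27 without input 1 and -0.06 without input 3. On the median-ratio scale (-0.94) it was -0.39 without Flag-IP 1 and stayed below 0 with each other library left out.

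**Figure D3:**
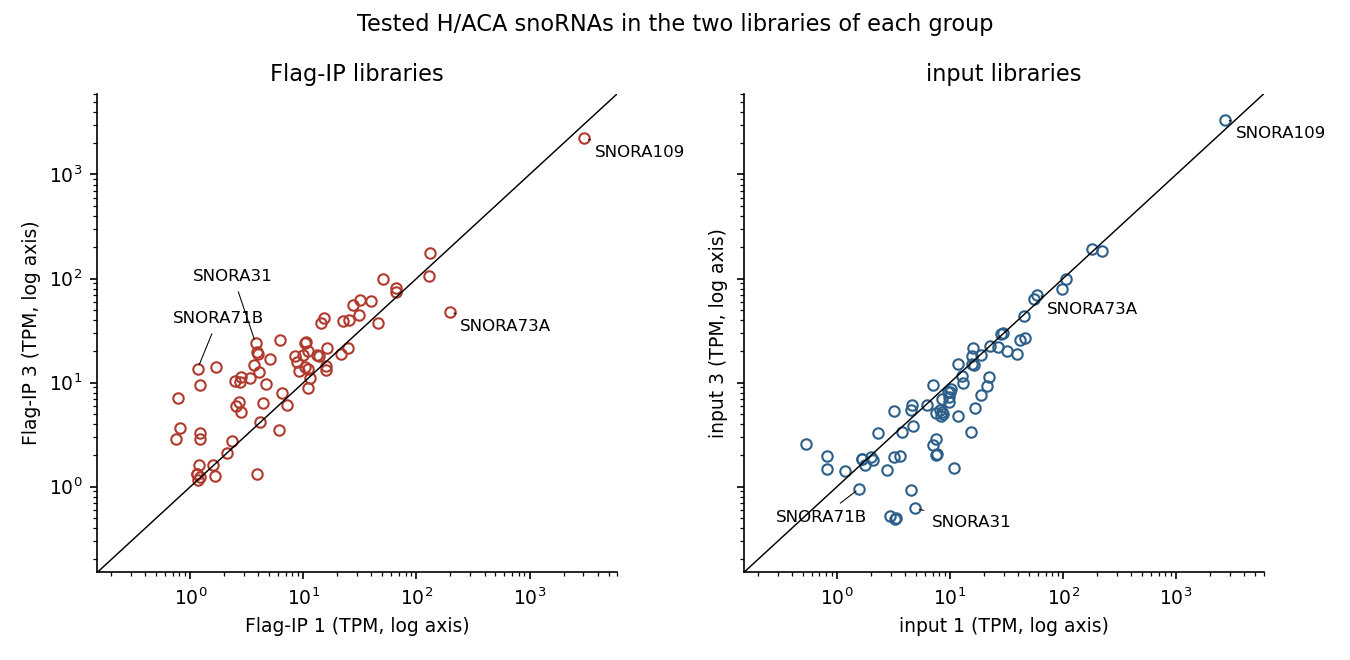
TPM (log axes) of the tested H/ACA snoRNAs above 0 in both libraries of a group, Flag-IP 3 against Flag-IP 1 at left and input 3 against input 1 at right, with the line of equal values. Most points lie above the line in Flag-IP and below it in input, and SNORA73A lies under the line in Flag-IP.

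Host genes mostly had larger log2 differences than the snoRNAs they carry. A host was looked for only where a strand was known, which left out the 24 snoRNAs known from RefSeq alone. Of the other 109 snoRNAs 107 lay inside a host on the same strand, 88 in protein-coding genes, 17 in long noncoding RNA genes and 2 in pseudogenes. For 61 tested snoRNAs the host was tested too (44 hosts), and the host had the larger log2 difference in 54 of the 61 as deposited and in 51 on the median-ratio scale. The median difference was 0.93 for these hosts as deposited, against 0.18 for these snoRNAs, and on the median-ratio scale -0.24 for the hosts, against -0.84 for the snoRNAs. Over all genes tested the medians were 0.84 and -0.01 in the same order of scales. How often genes other than the host lay above these snoRNAs was not counted, so the 54 and 51 describe no relation particular to hosts. Of the 44 hosts 38 were higher (86.4%) and none was lower as deposited, where 86.6% of all genes were higher. On the median-ratio scale 11 were higher (25%) and 13 lower (29.5%), where 22.3% and 18.6% of all genes were. The Spearman correlation between the differences of a snoRNA and its host was -0.04 over the 61, a description of pairs from the same libraries. How reads from an unspliced intron were assigned between a snoRNA and its host is not given in the labels.

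Lower calls were found among snoRNAs of protein-coding and of noncoding hosts. On the median-ratio scale, where 18.6% of all genes were lower, 20 of 59 snoRNAs with a protein-coding host and 3 of 11 with a noncoding host were lower, and their median differences were -0.90 and -0.84. Of 18 with a host of a ribosomal protein symbol 4 were lower, with a median of -0.92. These include SNORA7B, whose host RPL32P3 is a pseudogene and which did not pass. Of 42 with another protein-coding host 16 were lower, with a median of -0.87. No difference between these host types was tested.

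**Figure D4:**
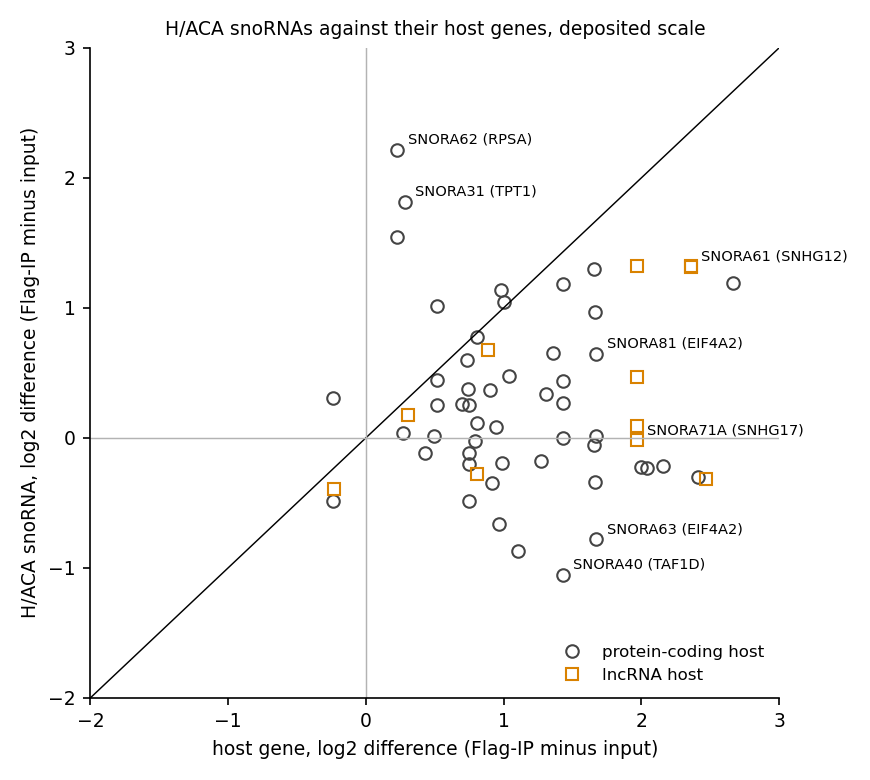
Log2 difference (Flag-IP minus input, deposited scale) of each tested H/ACA snoRNA against that of its host gene, 1 point for each of 61 snoRNAs, with marks by type of host and the line of equal values. Of the 61 points 54 lie on the side where the host has the larger difference.

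Among 11 hosts with at least 2 tested snoRNAs, holding 28 snoRNAs, 2 hosts (TAF1D and EIF4A2) each had a snoRNA called higher and another called lower on the deposited scale. The deposited differences of SNORA16A and SNORA61 of SNHG12 were both 1.32, those of SNORA3A and SNORA3B of RPL27A were -0.12 and -0.21, and both snoRNAs of RPSA were higher. No difference between snoRNAs of a host was tested. TAF1D had 6.13 and 3.47 TPM in Flag-IP 1 and 3, against 1.36 and 0.86 TPM in input 1 and 3. Among its 5 tested snoRNAs SNORA40 was lower, SNORA18 and SNORA25 were higher, and SNORA1 and SNORA8 did not pass as deposited, a span of 2.24 in log2 difference. EIF4A2 had 25.22 and 18.03 TPM in Flag-IP 1 and 3, against 5.61 and 6.43 TPM in input 1 and 3, and was higher on both scales (log2 difference 1.67 and 0.52). Of its snoRNAs, SNORA63 was lower and SNORA81 was higher as deposited. SNORA81 had 65.63 and 73.84 TPM in Flag-IP 1 and 3, against 44.71 and 43.44 TPM in input 1 and 3, with a log2 difference of 0.65 (limma adjusted p = 0.00284) as deposited and -0.59 (adjusted p = 0.0439) on the median-ratio scale. The groups separated on each scale, in opposite directions, and the median-ratio call was lost without Flag-IP 1 (-0.35), input 1 (-0.47) or input 3 (-0.72). SNORA4, also of EIF4A2, had 2.67 and 6.55 TPM in Flag-IP 1 and 3, against 4.68 and 3.8 TPM in input 1 and 3, and did not pass.

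RPSA had smaller log2 differences than its snoRNAs. It had 88.68 and 77.76 TPM in Flag-IP 1 and 3, against 69.09 and 72.56 TPM in input 1 and 3, with log2 differences of 0.23 (limma adjusted p = 0.287) as deposited and -1.02 (adjusted p = 0.00188) on the median-ratio scale. SNORA62 and SNORA6 were above 0 on both scales, and were not called on the second. SNHG12, by contrast, was higher on both scales (2.36 and 1.57), above both of its tested snoRNAs, SNORA16A and SNORA61. SRCAP, the host of SNORA30, had 12.91 and 10.38 TPM in Flag-IP 1 and 3, against 0.87 and 1.11 TPM in input 1 and 3, one of the larger host differences at 2.66 as deposited and 1.75 on the median-ratio scale.

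Further hosts of the snoRNAs described, though not all of them, are given by their deposited log2 difference. The ribosomal protein genes RPL10 (0.92), RPLP2 (1.04) and RPS12 (0.98) were higher as deposited and did not pass on the median-ratio scale. RPS2 (-0.24) and TPT1 (0.28) did not pass as deposited and were lower on the median-ratio scale (-1.50 and -0.96 in the same order). SNHG17 (1.97) and TBRG4 (1.66) were higher on both scales. SNHG7 (0.81), CCT6A (0.96), NOL11 (1.10), which hosts SNORA38B, and RCC1 (0.74), a guanine nucleotide exchange factor for Ran, were higher as deposited alone, and SENP3-EIF4A1 (0.52), which hosts SNORA48, was higher as deposited and lower on the median-ratio scale. CCT6P1, MBD2 and GTF2A1 were under the mean of 1 TPM and were not tested. DGLUCY, the host assigned to SNORA11B, was not among the genes tested. A single host was assigned to each snoRNA, a protein-coding one first, and some lie within a further gene. SNORA73A also lies within SNHG3, which was higher on both scales (1.34 and 0.76). SNORA48 also lies within EIF4A1 (0.91), which was higher as deposited alone.

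**Figure D5:**
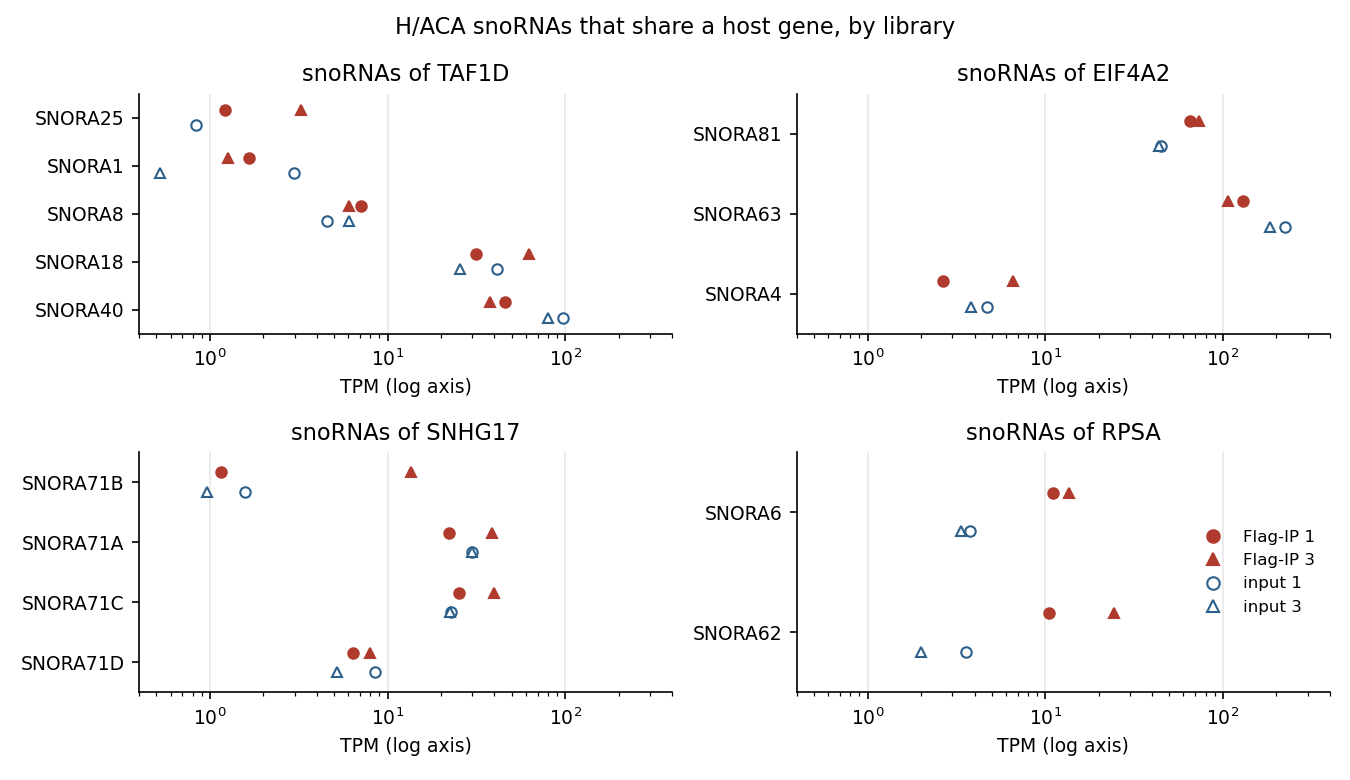
TPM (log axis) of the tested snoRNAs of 4 host genes, 1 row per snoRNA, with filled marks for Flag-IP 1 and 3 and open marks for input 1 and 3; a value of 0 (SNORA25 in input 3) is not drawn. SNORA40 of TAF1D and SNORA63 of EIF4A2 have their Flag-IP marks left of their input marks, while SNORA62 and SNORA6 of RPSA have them to the right.

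Members of a family, with the same number and a different letter, can be near copies, and the counting could have split or shared their reads. The 5 SNORA71 symbols were all above 0 and 4 were tested. SNORA71A had 22.26 and 38.85 TPM in Flag-IP 1 and 3, against 29.7 and 30.06 TPM in input 1 and 3, and was lower on the median-ratio scale (-1.24, limma adjusted p = 0.0265), a call lost without input 1 (-1.15) or input 3 (-1.34). SNORA71C had 25.28 and 39.61 TPM in Flag-IP 1 and 3, against 22.76 and 22.55 TPM in input 1 and 3, and was higher as deposited (0.47, limma adjusted p = 0.0343), a call lost without Flag-IP 3 (0.15), input 1 (0.47) or input 3 (0.46). SNORA71D had 6.41 and 8 TPM in Flag-IP 1 and 3, against 8.49 and 5.17 TPM in input 1 and 3, and was lower on the median-ratio scale (-1.004, limma adjusted p = 0.0414), a call lost without Flag-IP 1 (-0.73), Flag-IP 3 (-1.24) or input 1 (-0.59). All 4 are carried by SNHG17. In each of them Flag-IP 3 was higher than Flag-IP 1.

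SNORA5A, from TBRG4 like SNORA5C, had 11.06 and 19.94 TPM in Flag-IP 1 and 3, against 15.75 and 15.25 TPM in input 1 and 3. It was lower on the median-ratio scale (-1.23, limma adjusted p = 0.0272; lost without input 1, at -1.12) and did not pass as deposited (-0.05), and its difference from SNORA5C was not tested. SNORA38 had 3.64 and 14.7 TPM in Flag-IP 1 and 3, against 9.93 and 8.06 TPM in input 1 and 3, and passed on neither scale. Its deposited difference of -0.22 was 0.66 without Flag-IP 1 and -1.10 without Flag-IP 3, calls in opposite directions, and on the median-ratio scale (-1.31) it was called lower without Flag-IP 3 (-2.21). The other 6 symbols of the SNORA70 family were listed at 0 in every library. SNORA59A and SNORA59B had the same value in each library (1.14 and 1.32 TPM in Flag-IP 1 and 3, against 1.67 and 1.83 TPM in input 1 and 3), so the 25 lower calls on the median-ratio scale hold this value under both symbols.

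Other RNAs of the nucleolus and Cajal bodies gave a setting for these values. Of 28 SCARNA rows, RNAs of Cajal bodies that in part share the H/ACA fold, 23 were tested: 10 were higher (43.5%, against 86.6% of all genes) and 3 lower (13.0%, against 0.74%) as deposited (median 0.14). Of the 23, 1 was higher and 10 lower on the median-ratio scale (median -0.67), where 22.3% of all genes were higher and 18.6% lower. SCARNA26A and SCARNA26B had the same value in each library, so the 10 higher calls as deposited hold that value under both symbols. Of 218 box C/D rows outside the SNORD115 and SNORD116 clusters 42 were tested, with 21 higher and 10 lower as deposited (median 0.45), and 4 higher and 15 lower on the median-ratio scale (median -0.53), against the same shares of all genes. All 3 medians, that of H/ACA snoRNAs included, lay under those over all genes on both scales, and no difference between the classes was tested. Over all rows the summed TPM of H/ACA snoRNAs over that of box C/D snoRNAs was 0.165 and 0.153 in Flag-IP 1 and 3, against 0.267 and 0.368 in input 1 and 3, or 0.501 times as large in Flag-IP (exact permutation test, p = 0.333). The box C/D sum was 26128 and 25232 TPM in Flag-IP 1 and 3, against 15754 and 12594 TPM in input 1 and 3. That sum was 1.81 times as large in Flag-IP, while the H/ACA sum was 0.925 times as large. Leaving out SNORA109 and SNORD3A (U3), which held between 96.0% and 97.5% of the box C/D sum, the same quotient was 1.95 and 2.12 in Flag-IP 1 and 3, against 2.73 and 2.52 in input 1 and 3. The quotient was lower in both Flag-IP libraries on either reckoning (0.775 times without those RNAs, exact permutation test, p = 0.333, the smallest the design allows). Without them the box C/D sum was 1.36 times and the H/ACA sum 1.05 times as large in Flag-IP. TERC, the telomerase RNA, which carries an H/ACA domain, had 7.36 and 8.27 TPM in Flag-IP 1 and 3, against 5.98 and 6.14 TPM in input 1 and 3. It did not pass as deposited (0.32, limma adjusted p = 0.149) and was lower after median-ratio scaling (-0.78, limma adjusted p = 0.0111).

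The mRNAs of the proteins that H/ACA snoRNAs bind were mostly higher as deposited. Of 10 genes for H/ACA proteins and assembly factors 7 were tested, 5 were higher and none lower as deposited (median 0.58), where 86.6% of all genes were higher; on the median-ratio scale none passed as higher (limma), and NHP2, RUVBL2 and NOLC1 were lower (median -0.30). DKC1 had 10.44 and 8.16 TPM in Flag-IP 1 and 3, against 2.84 and 3.51 TPM in input 1 and 3 (log2 difference 1.30 as deposited, 0.24 on the median-ratio scale, where it did not pass). NOP10 had 19.99 and 17.44 TPM in Flag-IP 1 and 3, against 5.37 and 6.97 TPM in input 1 and 3 (1.47 and 0.32 in the same order, the second not passed). NHP2 had 7.18 and 6.85 TPM in Flag-IP 1 and 3, against 6.1 and 6.47 TPM in input 1 and 3 (0.14, not passed, and -0.96, lower), and GAR1 was under the mean of 1 TPM. Of the 4 box C/D proteins 3 were higher as deposited, and on the median-ratio scale NOP56 and NOP58 were higher and FBL, the methyltransferase fibrillarin, was lower. Of 12 pseudouridine synthases that work without a guide RNA 8 were tested, 6 were higher as deposited (median 0.71, where that of all genes was 0.84), and on the median-ratio scale 1 (PUS7) was higher and 1 was lower (median -0.06).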

How the data were processed

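RNA immunoprecipitation sequencing of NOMO-1 cells gave 2 Flag-IP and 2 input libraries, grouped by title and antibody. The values deposited by the authors are TPM per gene symbol; each library sums to 1000000. Per the submitters' processing notes, STAR, RSEM and GRCh38 were used; no source used here gives versions, annotation or read length. TPM of RNAs this short depends on the length correction used, and TPM is no count, so no count test was run and no counting intervals are given.

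Members and gene lists were chosen with earlier results of these data known. The 6487 genes whose mean reached 1 TPM were fitted as log2(TPM + 1), pseudocount 1, with limma 3.58.1 in R 4.3.3 (lmFit, eBayes with trend), two-sided, with Benjamini-Hochberg adjustment over all of them and a threshold of 0.05. With 2 residual degrees of freedom, limma estimated infinite prior degrees of freedom for deposited and 4.02 for median-ratio values. The fit was checked on simulated data in which every gene had the same spread and values did not move in steps. That setting differs from these snoRNAs, so the check does not bear on their calls. Median-ratio factors used genes above 0 in all libraries. Sums were compared by exact permutation (scipy 1.17.1).

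Named were the 10 members with the highest mean, up to 10 per direction with the largest called difference on each scale, SNORA73A and SNORA73B, members of their families and their hosts; SNORA65, SNORA47, SNORA3A, SNORA3B, SNORA4, SNORA1, SNORA8, SNORA59A and SNORA59B were named after their values were seen. Hosts and sequences came from GENCODE 29 and RefSeq. Alternatives were another pseudocount, other filters, no trend, the replicate block, other scalings and each library left out.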

Additional observations from a re-analysis of the deposited data

How the results depend on the processing

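Over 774 alternative values of 33 named snoRNAs, 601 kept direction and side of the threshold, 96 kept direction and lost the call, 39 kept direction and gained one, and 38 turned. Quantile scaling and scaling without structural RNAs replace either scale, so the same fitted values are counted under both. The latter divides each library by its summed TPM outside structural RNAs. All snoRNAs are left out of that sum but were still tested. Of those 38, 14 were turns of called values, 23 of values that passed neither way and 1 (SNORA38 as deposited without Flag-IP 1, 0.66) gained a call. The count of snoRNAs higher as deposited (25) was 10 with no filter, 16 with the replicate block, 0 with quantile scaling and 2 without structural RNAs, and 11 to 32 with a library left out; the count of those lower (11) was 4 with no filter, 6 at a mean of 5 TPM, 21 with quantile scaling, 22 without structural RNAs and 5 to 22 with a library left out. Their median (0.09) was -0.78 with quantile scaling, -0.87 without structural RNAs and -0.20 to 0.49 with a library left out. All genes higher as deposited (5616) came to 1272 at a mean of 5 TPM, 1243 with quantile scaling and 2000 without structural RNAs; all genes lower (48) to 25, 1219 and 644 in the same order, and 28 to 57 with a library left out. On the median-ratio scale the snoRNAs higher (0) were 1 with no filter, 2 without structural RNAs and 0 to 4 with a library left out; those lower (25) were 16 with no filter, 14 at a mean of 5 TPM and 18 to 38 with a library left out. All genes higher there (1444) came to 392 at a mean of 5 TPM and 961 to 1135 with a library left out; all genes lower (1207) to 355, 644 without structural RNAs and 587 to 837. The median-ratio median of -0.94 was -1.35 to -0.39 with a library left out. The summed ratio of 0.925 was 1.05 without SNORA109 and 1.09 over symbols with 1 locus. As a share of the TPM outside ribosomal RNA, 7SL and 7SK it was 0.525. As deposited, these differences reversed: SNORA18 without Flag-IP 3 (range with a library left out -0.047 to 0.93), with quantile scaling (-0.33) and without structural RNAs (-0.57); SNORA73A without Flag-IP 1 (range -0.42 to 1.61), with quantile scaling (-0.14) and without structural RNAs (-0.42); SNORA71B without Flag-IP 3 (range -0.058 to 2.70). With quantile scaling and without structural RNAs SNORA52 came to -0.30 and -0.53, SNORA81 to -0.053 and -0.36 and SNORA71C to -0.37 and -0.54. On the median-ratio scale SNORA109 reversed with quantile scaling (0.23). The cause was not tested. Samples of the same replicate number did not deviate together (r = -0.168 as deposited and -0.187 on the median-ratio scale over 6487 genes). With 2 libraries per group this cannot show whether the numbers pair them, and the main fit used no pairing. With the replicate block 25 snoRNAs were lower on the median-ratio scale, 23 of them among the 25 lower without it. A crossed pairing, chosen after seeing the data, gave 28 higher and 14 lower as deposited, and 4 higher and 51 lower on the median-ratio scale. Depth is unknown, and the step size limits snoRNAs near 1 TPM.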
